A study of Mus musculus with 8 samples.

Results

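Cells of the mouse embryonic stem cell line 46C labelled KO for Dip2c were compared with WT-labelled 46C cells after 6 days in N2B27 medium. The comparison rests on 2 of the 8 libraries of the study, 1 per label, and on 15230 autosomal genes, kept out of 55078 symbols because 2 or more of the 8 libraries had an FPKM of 1 or higher. With all chromosomes 15965 genes met that filter. FPKM are fragments scaled to transcript length and to the mapped fragments of a library. A difference is KO minus WT in log2 of FPKM plus 1, which understates the difference of genes with low FPKM, and past 2-fold means a difference of at least 1 in size on that scale. A gene under 1 FPKM in both libraries of a pair therefore cannot be past 2-fold. Values given as a pair are FPKM at day 6, WT before KO, and a value after them is the difference. With 1 library per label there is no replicate error, no test was possible and no difference carries a p-value. The pair of the same labels in stem cell medium, N2B27 day 0, serves as a measure of spread, plotted beside day 6 for every gene list and given in the text for the main groups and genes.

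The study sampled both labels in a KSR series and an N2B27 series, each with 1 library before and 1 after neural induction, and sequenced messenger RNA. The groups used here are WT-labelled and KO-labelled 46C cells in stem cell medium, after 6 days in N2B27 and, for the second series, after 4 days in KSR induction medium. All are 46C cells, a line in which GFP was placed at the Sox1 gene. How the deletion was made and how many clones the KO-labelled cells come from is not stated in the labels. The title of the WT library gives day 6 and its column day 7, so label and a day of culture cannot be told apart in this pair. The values are FPKM without counts, so depth is unknown. FPKM summed to 508556 in the WT and 515389 in the KO library at day 6, and 14329 and 14072 genes reached 1 FPKM. The sums of the N2B27 day 0 pair lay further apart, at 635836 in the WT and 567612 in the KO library. All 3 Y-linked genes looked at (Uty, Ddx3y and Eif2s3y) were above 0 in the WT and at 0 in the KO library at day 6. Any effect of that difference between the cells and an effect of Dip2c cannot be told apart.

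N2B27 is a serum-free medium in which stem cells leave the naive state, turn into neural progenitors that carry Sox1, and then give rise to neurons. Proneural transcription factors such as Neurog2 start the last step, while Notch signalling between neighbours keeps progenitors from taking it. Progenitors also take on positional identities, ventral ones under hedgehog and dorsal ones under BMP and Wnt signals. Such cultures can hold cells of other germ layers, among them endoderm. Dip2c belongs to the disco-interacting protein 2 family, large proteins with domains like those of acyl-CoA synthetases. In a bulk library, fewer cells of a type and less RNA per cell cannot be told apart.

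Dip2c itself (ENSMUSG00000048264.16, chromosome 13:9276528-9668928, GRCm38/mm10) had 5.78 FPKM in the WT and 4.43 in the KO library at day 6, a difference of −0.32. The WT and KO libraries had 2.74 and 2.91 FPKM at N2B27 day 0, and in the KSR series 3.69 and 3.33 before and 4.86 and 4.43 after induction. The FPKM of the whole gene does not show which exons were read, and it does not separate the labels. The paralogues Dip2a (4.41 and 4.55 FPKM at day 6) and Dip2b (11.4 and 11.9) differed by 0.04 and 0.05.

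At day 6 the genes lower in the KO library outnumbered those that were higher. Past 2-fold, 222 autosomal genes were higher (1.46%) and 520 lower (3.41%). At day 0 119 were higher (0.781%) and 216 lower (1.42%), and at KSR day 4 118 were higher (0.775%) and 94 lower (0.617%). The SD of the differences over genes was 0.49 at day 6 and 0.39 at day 0, and the medians were 0.02 and −0.05. Past 4-fold at day 6 were 18 higher and 70 lower genes. Of the 222 genes higher at day 6, 13 were past 2-fold in the same direction at KSR day 4 (5.86%, and 11.02% of the KSR genes) and 12 in the opposite one. Of the 520 lower genes 15 were so in the same direction (2.88%, and 15.96% of the KSR genes) and 20 in the opposite one. Whether the pairs differ from each other was not tested.

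**Figure D1:**
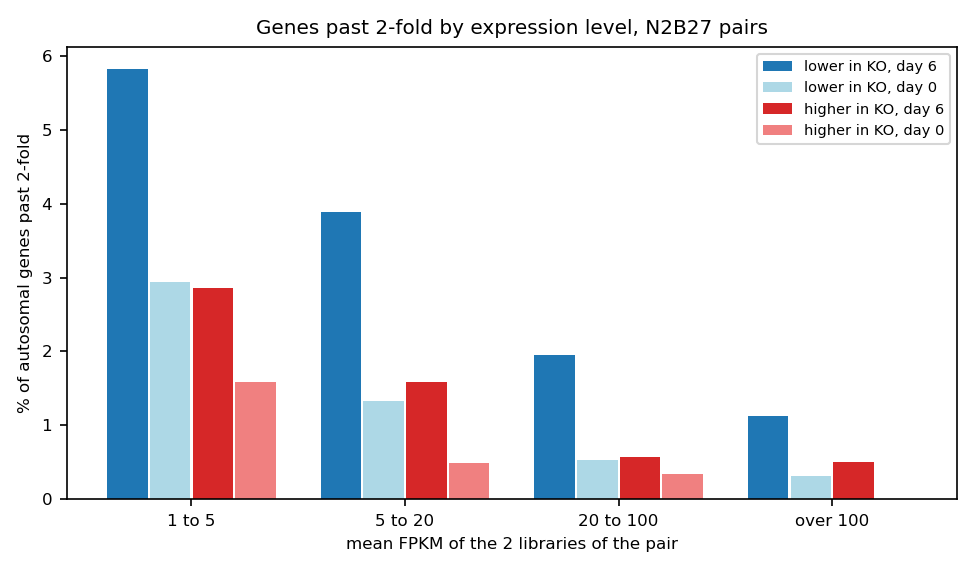
Share of autosomal genes past 2-fold (y axis, in %) by the mean FPKM of the pair (x axis) in the N2B27 day 6 and day 0 pairs, 1 library per label. At every level the day 6 bars are higher than the day 0 bars of the same direction, with 5.83% against 2.94% lower at 1 to 5 FPKM and 1.13% against 0.306% above 100 FPKM.

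Set side by side at like expression, the day 6 shares were above those of day 0 at each level, as the plot by expression level shows. Among genes with a mean of 5 to 20 FPKM, 3.89% were lower at day 6 and 1.33% at day 0, and 1.58% and 0.486% were higher. Of the genes past 2-fold at day 6, 168 higher and 417 lower ones were within 1.5-fold at day 0. Of these, 63 and 229 were under 1 FPKM in both day 0 libraries, so that day 0 gives no measure of their spread, and 105 and 188 were not.

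The lower genes included some that the KSR series turns on. Of 705 genes at least 4-fold higher at day 4 than at day 0 of the KSR series in both labels, 80 (11.3%) were lower past 2-fold at N2B27 day 6 and 26 (3.69%) higher, with a median of −0.06. Without the neuronal and proneural lists 64 of 680 (9.41%) were lower. Of 503 genes at least 4-fold lower at KSR day 4, 38 (7.55%) were lower and 9 (1.79%) higher at N2B27 day 6, with a median of −0.11. Among 6676 genes within 1.5-fold in the KSR series the shares were 1.004% lower and 0.779% higher. These classes were made without the N2B27 libraries.

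**Figure D2:**
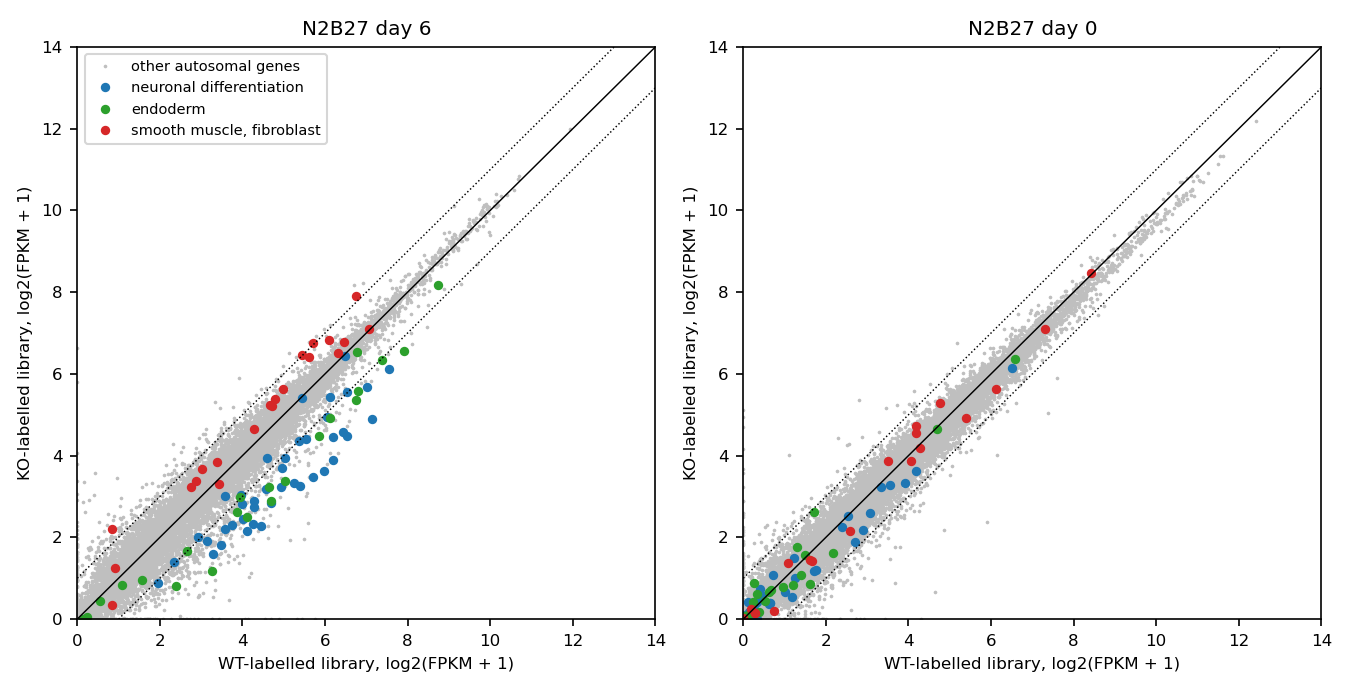
log2(FPKM + 1) of each autosomal gene in the WT-labelled (x axis) and KO-labelled library (y axis) at N2B27 day 6 (left) and day 0 (right). Each point is a gene, dotted lines mark a difference of 1, and 3 gene lists are coloured. At day 6 the neuronal genes (blue, median −1.40) and endoderm genes (green, median −1.20) lie below the diagonal and most smooth muscle and fibroblast genes (red, median 0.51) above it, while at day 0 the 3 medians are −0.03, 0.00 and −0.09.

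Neuronal differentiation genes were lower in the KO library as a group. All 41 of the autosomal list that entered were below 0, where 46.3% of all genes were, and 32 were lower past 2-fold, 0 higher, with a median of −1.40. Of all autosomal genes 3.41% were lower past 2-fold. Their FPKM summed to 1785 in the WT and 683 in the KO library. At day 0 the sums were 184 and 138 with 0 genes past 2-fold, and at KSR day 4 they were 712 and 711 with a median of 0.12. Of the 41 genes, 15 in the WT and 14 in the KO library reached 1 FPKM at day 0, which limits that count. The neuronal sum of the KO library at N2B27 day 6 thus lay near both sums of KSR day 4, and that of the WT library above them.

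Gap43, a growth cone protein gene of extending axons (ENSMUSG00000047261.9, chromosome 16:42248442-42340651), shows the pattern. Its FPKM at N2B27 day 6 was 92.1 in the WT and 21.5 in the KO library, at N2B27 day 0 0.225 and 0.128, and in the KSR series 0.365 and 0.313 at day 0 and 20.8 and 29.2 at day 4. It was thus high in the WT library at day 6, lower in the KO library and in both KSR day 4 libraries, and near 0 in stem cells (day 6 difference −2.05). The neurofilament gene Nefm had 140.3 and 28.8 FPKM at day 6 (−2.25), after 7.38 and 5.07 at day 0. Ina, which encodes the neuronal intermediate filament protein internexin, had 72.5 and 13.7 (−2.32). Both filament genes were within 1.5-fold at day 0. Celf3, a neuronal RNA-binding protein gene, had 61.99 and 11.4 (−2.35), and Nhlh2, a bHLH factor of newborn neurons, 50.9 and 10.1 (−2.22). The smallest differences of the list were those of Dpysl5, a growth cone protein gene, with 87.9 and 85.6 FPKM (−0.04), and of Nsg2, with 42.4 and 41.3 (−0.03); these 2 were picked after their values were seen.

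Proneural genes, which act before the neuronal ones, were lower as well. All 18 were below 0, 9 were lower past 2-fold and 0 higher, with a median of −0.90 and sums of 890 and 426 FPKM. The shares over all autosomal genes were 46.3% below 0 and 3.41% lower past 2-fold. Neurog2 (ENSMUSG00000027967.8, chromosome 3:127633135-127635631), a bHLH factor that commits progenitors to neurons, had 47.3 FPKM in the WT and 4.09 in the KO library. It had 0.0332 and 0 FPKM at N2B27 day 0, 0 in both KSR day 0 libraries, and 3.85 and 2.09 after KSR induction. Its level in the KO library at day 6 was thus close to that of the WT library at KSR day 4 (day 6 difference −3.25). Cdkn1c, an imprinted cell cycle inhibitor gene on in cells that leave the cycle, had 104 and 33.5 FPKM (−1.61), and was also lower in the KO library at KSR day 4, with 23.6 and 3.06. It was the 1 gene lower past 2-fold of 17 in the cell cycle exit list, of which 12 were above 0 (median 0.34). Neurog1, a close relative of Neurog2, had 12.6 and 7.23 (−0.72) and is named after its value was seen.

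Proneural factors bind E-boxes, and the promoters of 4 genes that were lower are shown because each holds such a box in the 250 bases before its start. Stmn3, a neuronal microtubule regulator gene, was picked for its box and after its values were seen. The sequences are those of RefSeq on GRCm38.p6, printed 5′ to 3′ on the strand of the gene, and capitals mark CAGATG, its reverse complement CATCTG, or the palindrome CAGCTG.

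Nhlh2 (chr3:102009895-102010144, plus strand, 50.9 FPKM in WT and 10.1 in KO at day 6): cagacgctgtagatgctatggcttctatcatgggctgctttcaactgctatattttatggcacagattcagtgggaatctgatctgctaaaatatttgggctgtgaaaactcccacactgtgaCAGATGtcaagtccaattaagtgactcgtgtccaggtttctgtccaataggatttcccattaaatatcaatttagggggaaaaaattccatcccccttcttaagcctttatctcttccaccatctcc

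Stmn3 (chr2:181314501-181314750, minus strand, 40.8 and 8.48 FPKM): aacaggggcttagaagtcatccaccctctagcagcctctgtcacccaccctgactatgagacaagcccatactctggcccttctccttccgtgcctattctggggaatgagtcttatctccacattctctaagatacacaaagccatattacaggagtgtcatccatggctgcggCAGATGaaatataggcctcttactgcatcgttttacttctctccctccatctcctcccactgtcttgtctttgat

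Ina (chr19:47014431-47014680, plus strand, 72.5 and 13.7 FPKM): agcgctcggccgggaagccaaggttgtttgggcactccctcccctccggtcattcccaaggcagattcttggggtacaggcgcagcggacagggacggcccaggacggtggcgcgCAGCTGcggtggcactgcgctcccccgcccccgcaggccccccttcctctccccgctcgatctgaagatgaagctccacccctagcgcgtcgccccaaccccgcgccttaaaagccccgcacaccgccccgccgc

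Dll3 (chr7:28301786-28302035, minus strand, 48.3 and 15.7 FPKM): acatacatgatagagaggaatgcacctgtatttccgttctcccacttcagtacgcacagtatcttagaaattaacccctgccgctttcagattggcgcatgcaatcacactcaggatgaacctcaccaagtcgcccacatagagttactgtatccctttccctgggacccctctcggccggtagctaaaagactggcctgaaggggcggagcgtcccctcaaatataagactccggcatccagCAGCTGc

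CAGATG in either orientation was present in 4 of the 16 neuronal genes with 1 promoter in the table (Nhlh1, Nhlh2, Srrm4 and Stmn3) and CAGCTG in 2 (Elavl3 and Ina). Of 11 proneural genes 0 held CAGATG and 5 CAGCTG (Dll3, Gadd45g, Neurog3, Sox11 and Sox4). Among 8194 promoters of autosomal genes that entered, 9.19% held CAGATG and 11.4% CAGCTG. Matches of the 2 motifs were counted apart and may share bases. A match is a description and no evidence of binding.

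Progenitor genes did not go in one direction. Of 27, 12 were above and 15 below 0, the median was −0.07 and the sums were 4174 and 4544 FPKM. The 25th and 75th percentiles over members were −0.64 and 0.32, wider apart than the −0.20 and 0.24 over all genes. Sox1, the marker of the neural plate into which GFP was placed in this line, had 42.9 FPKM in the WT and 56.9 in the KO library (0.40). Sox2 (154 and 189; 0.29), Nes (84.3 and 89.6; 0.09) and Pax6 (68.99 and 53.1; −0.37), a filament and 2 factors of progenitors, differed by less than 1.5-fold. These 4 are named as defining markers and not by their size. Irx3, a homeobox factor of the posterior neural plate, was the 1 member past 2-fold, with 182 and 88.2 FPKM (−1.04). That 1 of 27 is near the 3.41% of all autosomal genes that were lower past 2-fold. The markers of the labelled neural cells were thus present in both libraries.

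**Figure D3:**
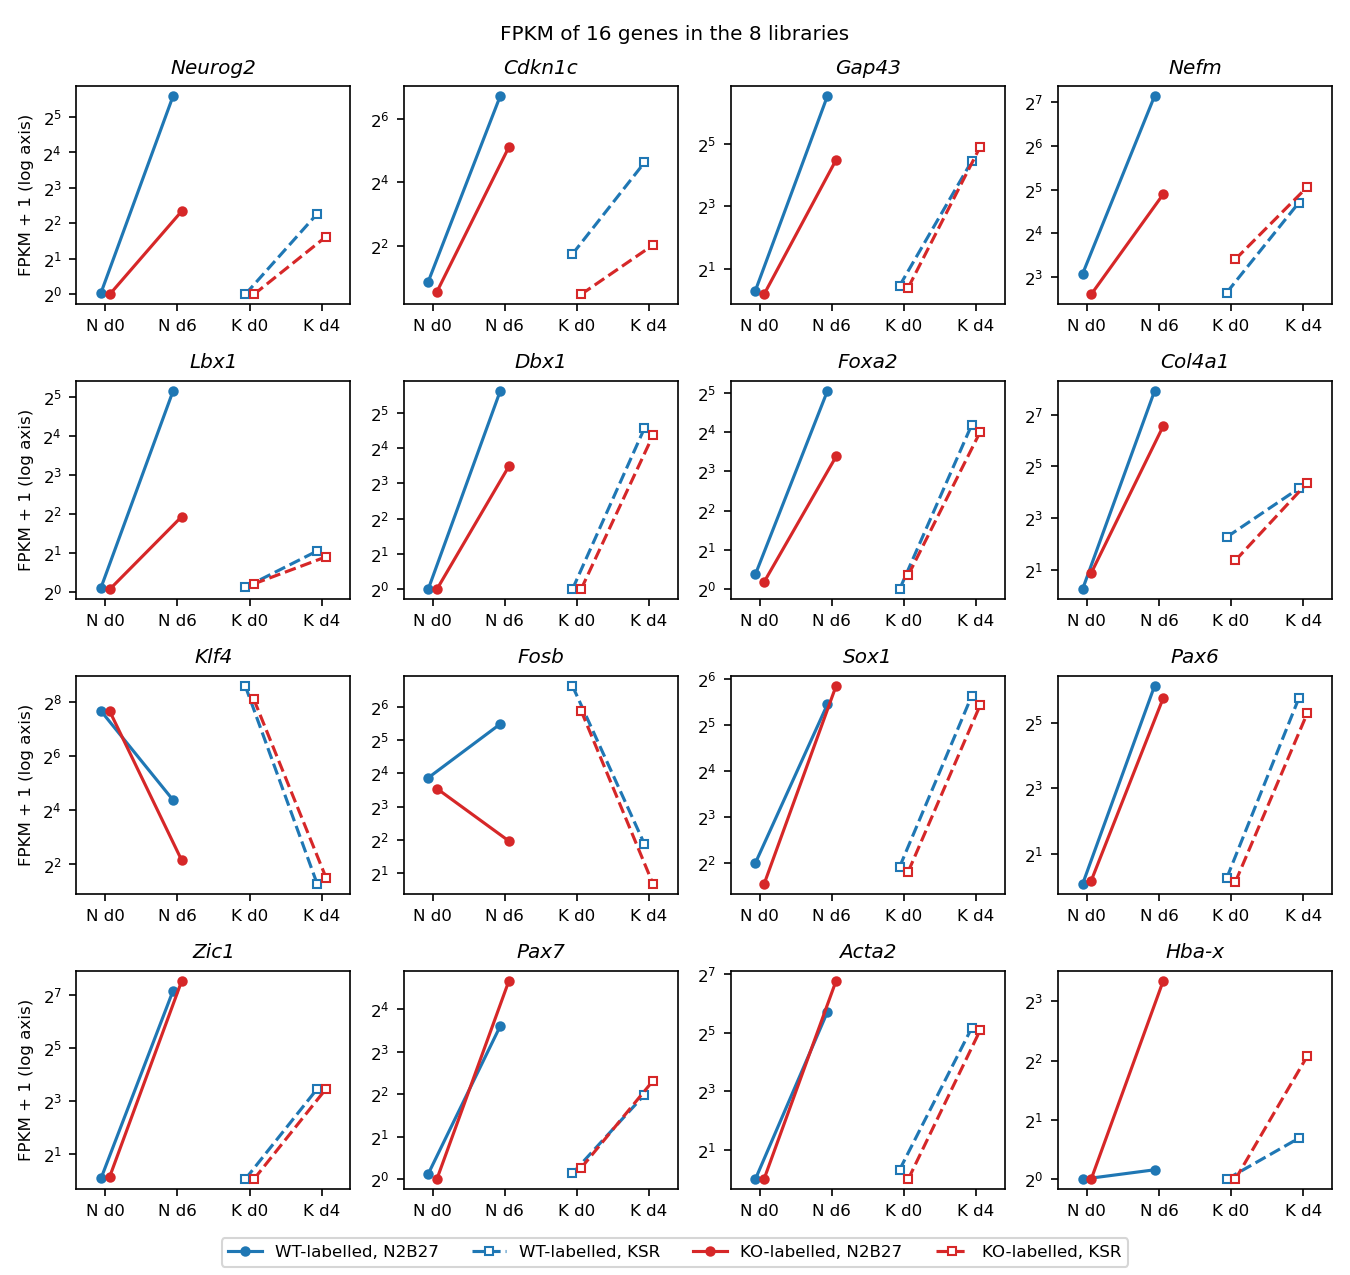
FPKM plus 1 (y axis, log scale) of 16 genes in the 8 libraries, with WT-labelled libraries in blue and KO-labelled ones in red. Filled circles are N2B27 day 0 and day 6 (N d0, N d6) and open squares KSR day 0 and day 4 (K d0, K d4), 1 library per point. Neurog2, Cdkn1c, Gap43, Nefm, Lbx1, Dbx1, Foxa2, Col4a1, Klf4 and Fosb are lower in the KO library at N2B27 day 6, Sox1, Pax6 and Zic1 lie within 1.5-fold, and Pax7, Acta2 and Hba-x are higher.

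Factors of neuron subtypes were lower as well. Beside 46.3% and 3.41% of all autosomal genes, 15 of 15 interneuron genes were below 0 and 10 lower past 2-fold (median −1.36, sums 139 and 46.1 FPKM). The size of that median depends on the low values: it was −0.87 with no filter (24 genes), −0.69 with a pseudocount of 5 and −1.88 with one of 0.1, and with a mean of at least 5 FPKM 1 gene was left, at −0.17. Lbx1, a homeobox factor of dorsal hindbrain and spinal interneurons (ENSMUSG00000025216.9, chromosome 19:45232684-45235812), had 34.5 FPKM in the WT and 2.83 in the KO library, with 0.0881 and 0.0547 at day 0 and 1.08 and 0.876 at KSR day 4 (day 6 difference −3.21). Prdm13, which acts in dorsal GABAergic neuron fate, had 16.9 and 1.03 (−3.15), and the homeobox gene Gsx1 of dorsal interneuron progenitors 78.7 and 15.7 (−2.25). Lhx1 had 6.66 and 0.507 (−2.34), Prrxl1, a factor of dorsal horn and sensory neurons, 9.62 and 1.81 (−1.92), and Tlx1 6.59 and 1.22 (−1.77). Of the 15 motor neuron genes of the list 7 entered, and 5 of these were lower past 2-fold (median −1.57), among them the hindbrain motor neuron factor Phox2a (15.2 and 4.07 FPKM; −1.67). This median was −0.45 with no filter (15 genes), −0.89 with a mean of at least 5 FPKM (4 genes) and −0.59 with a pseudocount of 5. At day 0, 0 genes of both lists were past 2-fold (medians 0.00 and 0.28). Only 4 of the 15 interneuron genes and 4 of the 7 motor neuron genes reached 1 FPKM in each day 0 library. For genes under 1 FPKM in both, day 0 gives no measure of spread. Otp, a homeobox factor of neuroendocrine and hindbrain neurons, had 8.8 and 0.466 (−2.74), and Mab21l2 17.4 and 1.2 (−3.06).

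Along the dorsoventral axis the medians of the ventral and dorsal lists stood on opposite sides of 0. The dorsal list does not hold Lbx1, Prdm13, Gsx1 and Prrxl1, named above for dorsal cells, which were all lower past 2-fold. The contrast thus depends on which dorsal genes are listed. Beside 46.3% and 3.41% of all autosomal genes, 14 of 14 ventral genes were below 0 and 6 lower past 2-fold (median −0.83, sums 159.96 and 52.7 FPKM). The median was −1.27 with a mean of at least 5 FPKM (5 genes) and −0.38 with a pseudocount of 5. Dbx1, a homeobox factor of the intermediate neural tube, had 48.1 and 10.2 FPKM (−2.13), against 22.7 and 19.7 at KSR day 4. Nkx6-1, a factor of ventral progenitors, had 10.7 and 2.51 (−1.74), and Foxa2, shared by floor plate and endoderm, 31.96 and 9.38 (−1.67). The hedgehog targets Gli1 (11.5 and 4.18; −1.27) and Ptch1 (36.8 and 16.7; −1.10) and the ligand Ihh (10.9 and 2.19; −1.90) were among 5 of 16 hedgehog genes lower past 2-fold. Over these 16 genes the median was −0.15, with 10 below and 6 above 0, and the sums were 344 and 334 FPKM. Of 15 dorsal genes 11 were above 0 (median 0.40, sums 373 and 468). Past 2-fold 1 was higher, as were 1.46% of all genes. The 1 dorsal gene, Pax7, a paired box factor of the dorsal neural tube, had 11.2 and 24.6 FPKM (1.07). Wnt1, a roof plate signal at 5.63 and 12.01 (0.97), and Zic1, a dorsal zinc finger factor at 143 and 186 (0.37), were also above 0. Pax3, a close relative of Pax7, was below it, with 44.9 and 22.9 (−0.94). Wnt1, Zic1 and Pax3 were named after their values were seen. At day 0, 0 ventral and 0 dorsal genes were past 2-fold (medians 0.02 and 0.05). Few could be, as 5 and 3 of the 14 ventral genes reached 1 FPKM in WT and KO there. Of the 15 dorsal genes 4 and 4 did.

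Along the head-to-tail axis 11 of 13 forebrain and midbrain genes were below 0 and 2 lower past 2-fold (median −0.48, and −0.90 with a pseudocount of 0.1), Pax2 (5.58 and 1.24 FPKM; −1.56) and Lmx1b (10.4 and 4.54; −1.04), both of the midbrain-hindbrain border. Of 17 hindbrain and spinal cord genes 6 were below 0 (median 0.08), and 2 were lower past 2-fold, among them Gbx2 (47.1 and 12.7; −1.81). Gbx2 serves the hindbrain and is also a gene of naive stem cells. Beside both lists, 46.3% of all autosomal genes were below 0 and 3.41% lower past 2-fold. The anterior Hox gene Hoxb2, expressed in the hindbrain, had 36.4 and 52.02 (0.504), and Hoxb5 and Hoxb6 of the spinal cord were at or near 0 in both libraries. These 3 Hox genes were picked after their values were seen.

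Axon guidance and synapse genes had medians nearer to 0 than the early neuronal ones. Of 52 axon guidance genes 31 were below 0, 6 lower and 3 higher past 2-fold (median −0.19). For this list and those below, the shares over all autosomal genes were 3.41% lower and 1.46% higher past 2-fold. Robo3, the Robo receptor of commissural axons, had 68.9 and 15.6 FPKM (−2.07), and Robo1 30.2 and 8.65 (−1.69). On the other side the ephrin receptor gene Epha7 had 33.7 and 90.9 (1.40), with 0.493 and 0.922 at day 0 and 47.5 and 33.9 at KSR day 4. Sema3c (3.16 and 8.7; 1.22) and Sema3f (5.83 and 12.7; 1.01), secreted guidance cues, were the other 2 higher genes. Of 28 synapse genes 7 were lower past 2-fold and 0 higher (median −0.38), among them Snap25, a SNARE protein gene of vesicle release (12.4 and 3.89; −1.46), and Lrrtm1, a synaptic adhesion protein gene (9.07 and 0.632; −2.62). Of 47 ion channel genes 6 were lower, such as the acetylcholine receptor subunits Chrna3 (11.6 and 3.63; −1.44) and Chrnb2 (8.98 and 2.51; −1.51), and 1 higher, the calcium channel gene Cacna1g (18.9 and 43.5; 1.16). Of 33 splicing and RNA-binding genes 8 were lower and 1 higher. The lower ones include the neuronal regulators Elavl3 (36.8 and 9.13; −1.90), Srrm3 (10.5 and 2.67; −1.64) and Srrm4 (18.4 and 6.35; −1.40), and the higher one is Cpeb1 (3.54 and 8.91; 1.13). Actl6b, the neuronal subunit of the BAF chromatin remodelling complex, had 6.76 and 0.471 (−2.40).

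In Notch signalling 6 of 25 genes were lower past 2-fold and 1 higher (median −0.42). Beside this and the next lists, 3.41% of all autosomal genes were lower and 1.46% higher. The ligand-like Dll3 had 48.3 and 15.7 FPKM (−1.56), the ligand Jag1 28.6 and 12.3 (−1.15), the glycosyltransferase gene Mfng 20.8 and 8.09 (−1.26) and the target Hey1 16.7 and 5.13 (−1.53). The receptor gene Notch2 was higher, with 9.93 and 21.1 (1.01). The progenitor target Hes5 lay between, with 76.04 and 53.1 (−0.51), named after its value was seen. In Wnt signalling 5 of 50 genes were lower and 0 higher (median 0.00). The ligands Wnt7b (45.8 and 7.07; −2.53) and Wnt7a (10.99 and 3.26; −1.49) and the secreted modulator Sfrp2 (625 and 295; −1.08) were among them. Of 39 BMP and TGF-beta genes the ligand Bmp4 was higher (2.3 and 6.62; 1.21) and 3 were lower, among them Id4 (13.8 and 4.04; −1.55). Of 36 FGF and ERK genes 5 were lower and 0 higher (median −0.26), such as the phosphatase gene Dusp8 (16.4 and 4.99; −1.54). Of 25 retinoic acid genes 3 were lower and 0 higher (median −0.03), among them the retinoic acid degrading enzymes Cyp26b1 (80.5 and 32.02; −1.30) and Cyp26a1 (10.8 and 4.25; −1.17). At day 0, 0 genes of the Notch, Wnt, FGF and retinoic acid lists were past 2-fold, and 1 of the BMP and TGF-beta list was lower. At 1 FPKM or more in the WT and KO library there were 18 and 19 Notch and 27 and 29 Wnt genes. For FGF and ERK these were 23 and 26, and for retinoic acid 13 and 14.

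**Figure D4:**
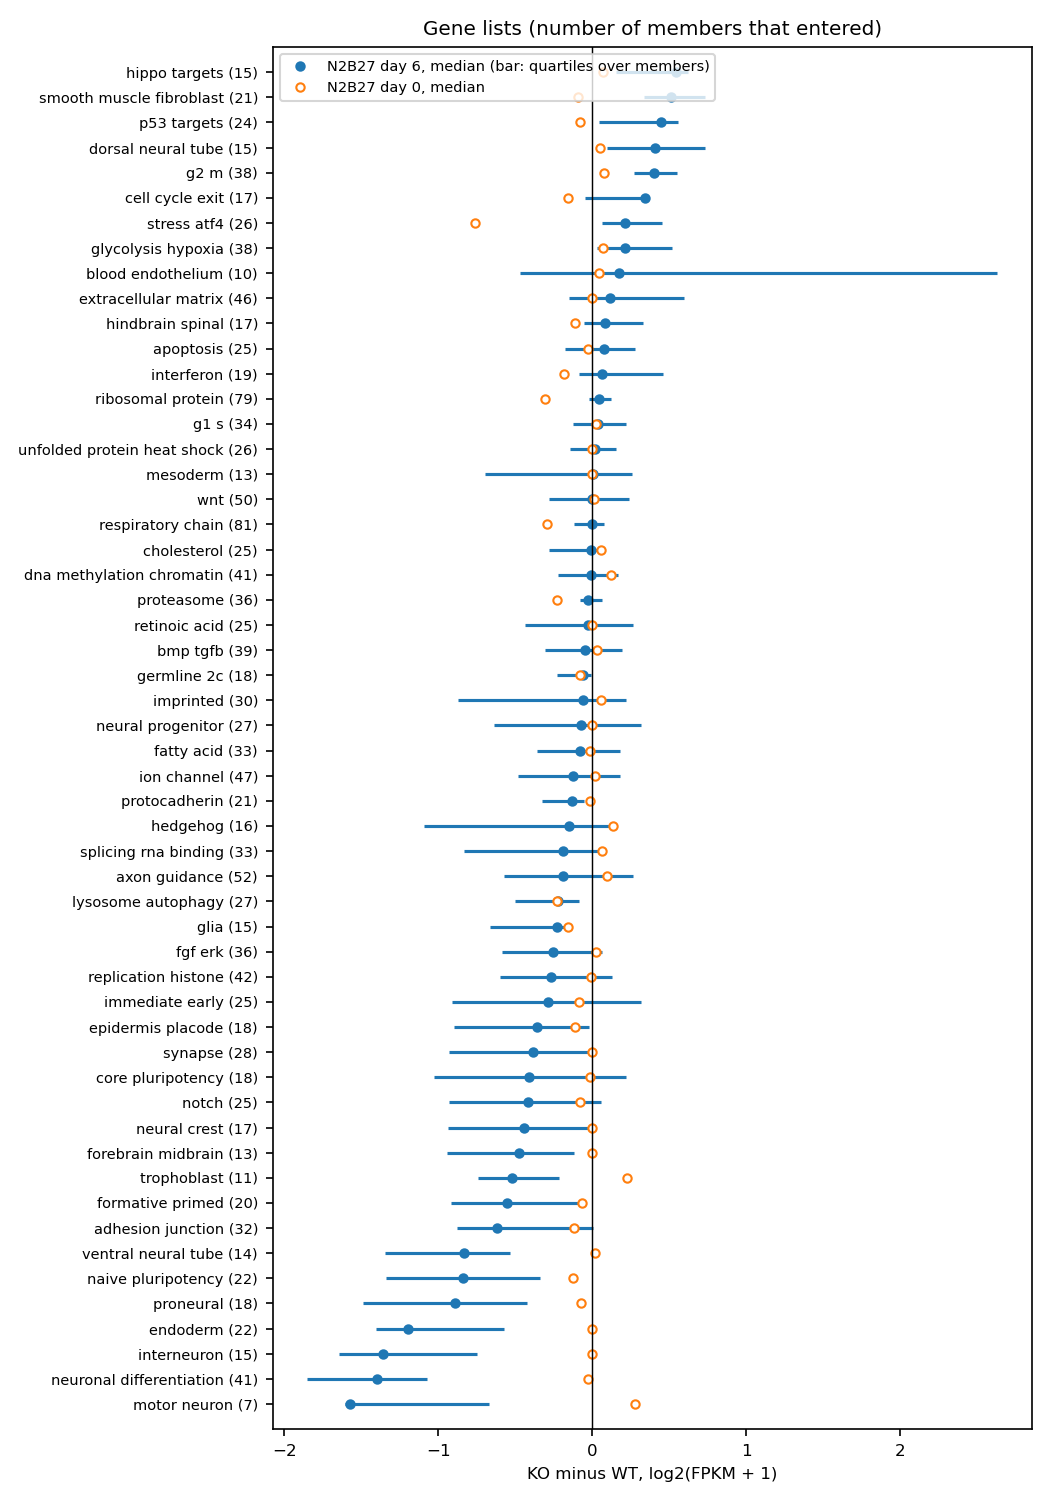
Median difference (x axis, KO minus WT in log2(FPKM + 1)) of 54 gene lists at N2B27 day 6 (filled, with bars from the 25th to the 75th percentile over members) and at N2B27 day 0 (open), sorted by day 6. At day 6, 4 medians are at or below −1 and 2 at or above 0.5, and at day 0 50 of the 54 are within 0.25.

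Genes of other cell types differed too, and their part in the differences above was not tested. Endoderm genes were lower in the KO library: of 22, 22 were below 0, 13 lower past 2-fold and 0 higher (median −1.20, sums 1434 and 739 FPKM, against 137 and 125 at day 0 and 279.9 and 279 at KSR day 4). Foxa2, a factor that opens endoderm and floor plate genes, had 0.299 and 0.134 FPKM at day 0 and 17.1 and 15.1 at KSR day 4, beside its day 6 values above. The defining factors Sox17 (56.9 and 21.2; −1.38) and Gata4 (24.03 and 8.43; −1.41), named as such, were above 5 FPKM in both libraries, while Afp (0.108 and 0.072) was near 0 and Apoa2 at 0 in both. Ttr and Rbp4, carriers of thyroid hormone and retinol made by visceral endoderm and liver, had 8.65 and 1.26 (−2.10) and 25.04 and 6.44 (−1.81). The basement membrane genes Lama1 (107 and 39.8; −1.40), Lamb1 (109.8 and 46.8; −1.21), Col4a1 (240.2 and 93.4; −1.35) and Col4a2 (167 and 79.5; −1.06) are the 4 lower genes of the 46 of the extracellular matrix list (median 0.12). The cartilage collagen gene Col2a1 (38.3 and 84.8; 1.13) is among the 2 higher ones of that list. The 4 basement membrane genes are also on the endoderm list. They are among its 13 lower genes, and their FPKM are part of its sums. Over all autosomal genes 3.41% were lower and 1.46% higher.

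Genes of the naive stem cell state were also lower in the KO library at day 6. Of 22 naive pluripotency genes 21 were below 0 and 8 lower past 2-fold (median −0.84, and −0.37 with a pseudocount of 5), with sums of 197 and 68.7 FPKM at day 6, 5653 and 4612 at day 0 and 194 and 228 at KSR day 4. Both day 6 libraries thus held little of the day 0 level. Klf4, a factor of the naive state, had 19.8 FPKM in the WT and 3.43 in the KO library (−2.23), after 203 and 202 at N2B27 day 0, and in the KSR series 388 and 273 at day 0 and 1.41 and 1.86 at day 4. The WT library at day 6 stood above the KO library and above both KSR day 4 libraries. Its relatives Klf2 (5.21 and 1.31; −1.43) and Klf5 (11.7 and 3.74; −1.42) were lower as well. Nanog (3.22 and 1.36) and Esrrb (3.3 and 1.4), named as defining markers, were under 5 FPKM in both. Core pluripotency genes stood on both sides: of 18, 12 were below and 6 above 0, 5 were lower past 2-fold and 0 higher (median −0.41), and the sums were 716 and 698 FPKM. Among the 5 was Pou5f1, which encodes Oct4 (17.7 and 6.69; −1.28). Of 20 formative genes 5 were lower and 0 higher (median −0.55, and −0.998 with a pseudocount of 0.1), such as Pou3f1 (12.4 and 5.14; −1.12). Of 32 adhesion and junction genes 7 were lower and 0 higher (median −0.62), among them the epithelial genes Cdh1 (20.1 and 7.73; −1.27), Cldn6 (63.8 and 24.4; −1.35) and Cldn7 (19.7 and 5.48; −1.67). At KSR day 4 both lists lay on the other side of 0. There 27 of the 32 adhesion genes were above 0, 5 higher past 2-fold and 0 lower (median 0.47). Of the 20 formative genes 19 were above 0, 2 higher and 0 lower (median 0.62), beside 0.775% of all autosomal genes higher in that pair.

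Immediate early genes, which cells switch on within minutes of a stimulus or of handling, stood on both sides. Of 25, 6 were lower and 1 higher past 2-fold (median −0.29). Fosb (ENSMUSG00000003545.3, chromosome 7:19302696-19310051) had the largest lower difference among the named genes, with 43.6 FPKM in the WT and 2.92 in the KO library (−3.51). It had 13.6 and 10.7 at N2B27 day 0, and in the KSR series 97.7 and 58.05 at day 0 and 2.68 and 0.596 at day 4, so the stem cell libraries of the same label were far apart. Fos had 64.7 and 12.8 at day 6 (−2.25), Junb 16.2 and 6.28 (−1.24) and Myc 23.4 and 9.04 (−1.28). The 1 higher gene, Ccn2, is a matrix protein gene that the Hippo effector YAP turns on, with 27.3 and 57.8 (1.06). It was also the 1 gene past 2-fold of 15 in the Hippo target list, of which 13 were above 0 (median 0.54).

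Among the genes higher in the KO library were those of actin filaments and contraction. Of 21 smooth muscle and fibroblast genes 19 were above 0, where 52.6% of all genes were, and 4 were higher past 2-fold, 0 lower (median 0.51, sums 783 and 1214 FPKM, against 729 and 707 at day 0 and 723 and 820.4 at KSR day 4). Acta2, the smooth muscle actin gene (ENSMUSG00000035783.9, chromosome 19:34241090-34255590), had 51.2 FPKM in the WT and 108 in the KO library (1.06), 0 in both at N2B27 day 0, and in the KSR series 0.249 and 0 at day 0 and 34.6 and 33.1 at day 4. The other 3 were the tropomyosin gene Tpm1 (107 and 240.1; 1.15), Tagln, which encodes the actin-binding protein transgelin (42.2 and 86.6; 1.02), and the desmin gene Des (0.797 and 3.58; 1.35), the last named after its value was seen. The filamin gene Flnc, which is not on the list, had 7.23 and 22.3 (1.498). The smooth muscle myosin gene Myh11 (0.228 and 0.3) and the fibroblast genes Lum (0.118 and 0.0593) and S100a4 (0 in both), named as markers, were near or at 0. Actc1, the cardiac actin gene, had 5.52 and 12.6 (1.06), as the 1 gene higher past 2-fold of 13 in the mesoderm list (median 0.01). The 2 lower ones were Pdgfra, a growth factor receptor gene (16.4 and 4.63; −1.63), and Isl1, a homeobox factor gene also on the motor neuron list (2.94 and 0.286; −1.61), which was named after its value was seen. The early mesoderm markers Mesp1 and Msgn1 were at 0 in both and did not enter.

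The largest differences upward among the named genes were those of the globin genes Hba-x and Hbb-bh1, followed by Larp1b and the globin genes Hba-a2 and Hba-a1. Hba-x and Hbb-bh1, globins of the embryo, had 0.117 and 0.351 FPKM in the WT and 9.16 and 10.9 in the KO library (3.18 and 3.13). At KSR day 4 Hba-x had 0.615 in the WT and 3.23 in the KO library and Hbb-bh1 1.14 and 2.18, and both were at 0 in the 4 day 0 libraries. Hba-a1 (0.214 and 6.5) and Hba-a2 (0.313 and 7.15) are near-identical copies that share reads, so their separate values are uncertain. These are the 4 higher genes of the 10 in the blood and endothelium list, of which 6 were above and 4 below 0, and at KSR day 4 all 10 were above 0 (median 0.32). Of the other members Lmo2 (4.68 and 1.82; −1.01) and Runx1 (4.34 and 1.6; −1.03) were lower past 2-fold. Pecam1 (−0.56) and Tek (−0.19) were below 0, and Kdr (0.07) and Cd34 (0.28) above it. Tal1 (0.518 and 0.178) was low in both libraries and Ptprc near 0, and neither entered. The members of this list other than the globins were named after their values were seen. The ferroxidase gene Cp had 9.12 and 38.8 (1.98), and the transcription factor gene Irf2 4.69 and 15.97 (1.58). The metabolic regulator Txnip had 30.6 and 72.5 (1.22), the enolase gene Eno3 7.47 and 22.3 (1.46) and the angiotensin receptor gene Agtr1a 6.75 and 20.4 (1.47). Larp1b had 0.1 and 6.26 (2.72), yet 0.055 and 3.49 at KSR day 0, so the KSR stem cell libraries differed in it as well.

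Cell cycle genes of the late phases were slightly higher in the KO library. Of 38 G2 and M phase genes 34 were above 0 (median 0.40, sums 2041 and 2624 FPKM) and 1 was past 2-fold, Ccnf, a cyclin gene of that phase (29.7 and 61.6; 1.03). Of all autosomal genes 52.6% were above 0 and 1.46% higher past 2-fold. The day 0 median of the G2 and M list was 0.07. Of 34 genes of the G1 and S phases 0 were past 2-fold (median 0.04). Of 24 p53 targets 18 were above 0 and 2 higher past 2-fold (median 0.44), Polk (3.84 and 9.29; 1.09) and Perp (4.51 and 10.3; 1.03). Aurkb, a mitotic kinase gene at 85.8 and 141 FPKM (0.71), and Cdk1 at 113 and 145.2 (0.36) are examples picked after their values were seen.

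The day 0 pair is no blank measure of spread, because a whole chromosome differed in it. Over 540 genes of chromosome 8 with a mean of at least 5 FPKM, the median difference at N2B27 day 0 was −0.38, whereas the medians of the other 18 autosomes lay from −0.09 to −0.02. At day 6 chromosome 8 had −0.10 and the others 0.01 to 0.09, and in the KSR pairs it had −0.03 at day 0 and −0.00 at day 4. Set against the mean of the KSR day 0 libraries, the median of chromosome 8 was 0.42 in the WT library at N2B27 day 0, 0.19 in the WT library at day 6, 0.01 in the KO library at day 0 and 0.07 in the KO library at day 6. Chromosome 8 holds 755 of the 15230 genes, of which 35 were among the 520 lower ones at day 6 and 31 among the 216 at day 0. Over all autosomal genes 3.41% were lower at day 6 and 1.42% at day 0. The 35 include Col4a1, Col4a2, Junb, Klf2, Cdh1 and Irx3, and Sox1 and Irf2 lie on chromosome 8 as well. Without chromosome 8, 216 autosomal genes were higher and 485 lower at day 6, and 117 and 185 at day 0. The cause was not tested.

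**Figure D5:**
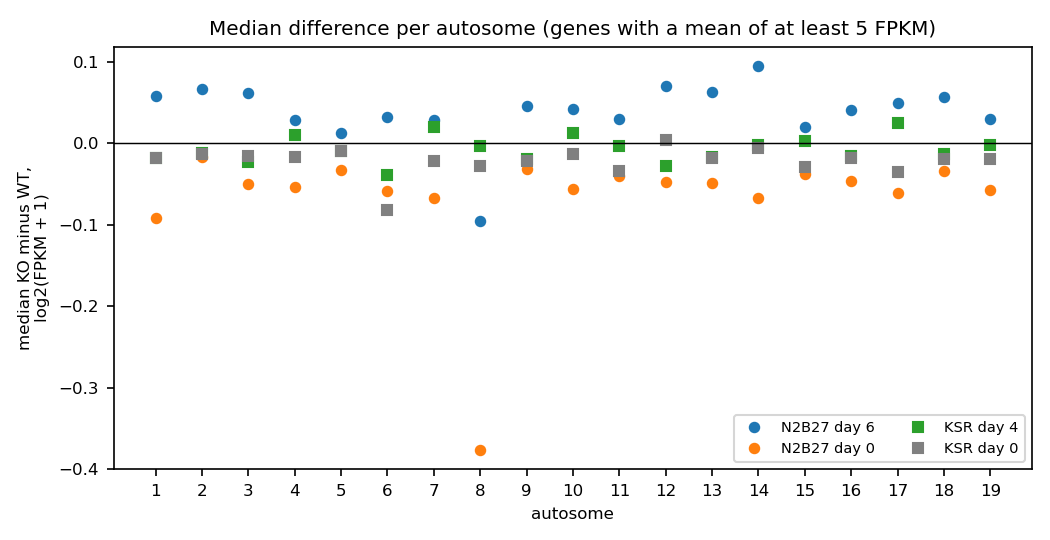
Median difference (y axis, KO minus WT in log2(FPKM + 1)) of the genes of each autosome (x axis) with a mean of at least 5 FPKM, in the 4 pairs of libraries. Chromosome 8 lies at −0.38 at N2B27 day 0 and −0.10 at N2B27 day 6, while the other autosomes lie between −0.09 and 0.09 in these 2 pairs.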

How the data were processed

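The FPKM of the 8 libraries were deposited by the authors in 1 table and were made with STAR and Cufflinks on mm10, per the submitters' processing notes. The sources used here do not give versions, settings or further normalisation. Libraries were grouped by their titles and matched to columns by name. In 4 samples title and description point to different libraries, and the title was used. Among the 4 is the WT library at N2B27 day 6, whose description names the KO-labelled library of KSR day 4. Its label thus rests on its title and column name. Of 55188 entries 110 repeated a symbol with identical values and were dropped. Chromosomes came from GENCODE M21 (GRCm38/mm10). No count test or replicate error was possible with 1 library per label, and depth, and so the precision it gives, is unknown.

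From the deposited FPKM, log2(FPKM + 1) differences, counts past 2-fold, list medians and sums were computed with Python 3.11.15, numpy 2.4.6 and pandas 2.3.3, and the counting was tested on simulated data. The 54 gene lists and the comparison itself were chosen with earlier results of these data known. List members that did not enter are not analysed here. A gene on 2 lists counts in both.

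Named genes were Dip2a, Dip2b and Dip2c, the 15 per direction with the largest day 6 difference at 5 FPKM or more on the higher side and within 1.5-fold at day 0, the 8 per direction at 50 FPKM or more, and up to 4 per direction and list past 2-fold at 5 FPKM or more, without predicted genes and pseudogenes. Not all of these are printed. Other genes in the text are defining markers, promoter matches or list members picked after their values were seen. Promoters came from RefSeq (GRCm38.p6), with 16 of 41 neuronal and 11 of 18 proneural genes matched to 1 promoter. Alternatives were other pseudocounts, filters and scalings, protein-coding genes only, and the KSR day 0 pair as spread.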

Additional observations from a re-analysis of the deposited data

Results flagged for a closer look

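A handful of named genes lay past 2-fold in opposite directions in 2 pairs of libraries. The difference between the pairs was not tested, each pair being 1 library per label. Chrna4, a nicotinic acetylcholine receptor subunit gene, was higher in the KO library at N2B27 day 0 (1.18, with 1.08 FPKM in WT and 3.71 in KO) and lower at day 6 (−1.14, 44.3 and 19.6). Chac1, a stress response gene of glutathione breakdown, was lower at day 0 (−1.23, 50.2 and 20.7) and higher at day 6 (1.52, 2.48 and 8.99). The list of Atf4 stress genes to which it belongs had a median of −0.76 at day 0 and 0.21 at day 6. Agtr1a was lower at KSR day 4 (−1.03, 10.7 and 4.74) and higher at N2B27 day 6 (1.47). Cldn6 was higher at KSR day 4 (1.02, 15.3 and 32.00) and lower at N2B27 day 6 (−1.35). The growth factor gene Fgf18 was likewise higher at KSR day 4 (1.06, 0.811 and 2.77) and lower at N2B27 day 6 (−1.36, 14.02 and 4.86).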

How the results depend on the processing

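More genes were lower than higher in the KO library at day 6 under every alternative tried. With a pseudocount of 0.1, 568 were higher and 1018 lower at day 6, 429 and 615 at day 0, and 347 and 640 past 2-fold at day 6 and within 1.5-fold at day 0. With a pseudocount of 5 these numbers were 41 and 176, 25 and 33, and 33 and 157, and with a mean of at least 5 FPKM 97 and 221, 47 and 73, and 79 and 173. Scaling each library to the same sum gave 252 higher and 215 lower genes at day 0, so that higher ones outnumbered lower ones there, unlike the 119 and 216 without it, and keeping protein-coding genes only gave 44 higher and 111 lower at day 0. Setting the median log2 ratio to 0 left 196 higher and 548 lower genes at day 6. The scalings moved the day 6 median of all genes by −0.02 at most. Under these alternatives 0 of the named genes that gave a value (92 to 148 by alternative) changed sign. With a pseudocount of 5, however, 60 of the 148 named genes were no longer past 2-fold, and 73 of 148 moved by more than the SD of the day 0 differences, as did 25 with one of 0.1. With the median log2 ratio set to 0, 5 were no longer past 2-fold. Of 53 list medians up to 7 changed sign, with a mean of at least 5 FPKM. Leaving out chromosome 8, added after the data were seen, moved 0 of 245 values by more than the SD of the day 0 differences, or a count by over 1.5 times. No paired analysis was possible because each label has 1 library per condition. Leaving out a replicate was not possible for the same reason. Depth is unknown, so how much of the spread at low FPKM comes from counting was not tested.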

Other observations

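Housekeeping groups were close to each other at day 6. Ribosomal protein genes had a median of 0.04 over 79 genes, respiratory chain genes one of −0.00 over 81 and proteasome genes one of −0.03 over 36, with 0, 1 and 0 genes past 2-fold. At day 0 the same medians were −0.31, −0.29 and −0.23, with the WT library higher. Differences at day 0 also followed transcript length: over 5 bins of genes by summed exon length, of 2991 to 2993 genes each, the day 0 median was −0.20 in the shortest and 0.10 in the longest bin, and the day 6 median 0.00 and 0.07. Glycolysis and hypoxia genes had a median of 0.21 over 38 genes, 30 of them above 0. Slc16a3, a lactate transporter gene, had 54.4 FPKM in the WT and 121 in the KO library (1.14), and Ddit4, an inhibitor of mTORC1 induced by stress and low oxygen, 47.9 and 109 (1.17), whereas the hypoxia target Ndrg1 was lower (8.03 and 3.15; −1.12).

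Imprinted genes stood on both sides, with 5 lower and 1 higher past 2-fold of 30. The noncoding RNAs H19 (273 and 106 FPKM; −1.36) and Meg3 (352 and 140.4; −1.32), both from the maternal allele, were lower. Mirg, of the same cluster as Meg3, was lower too (47.4 and 16.8; −1.44). Peg3, a zinc finger gene of the paternal allele, was higher (61.5 and 137; 1.14). Meg3 had 354 in the WT and 196 in the KO library at day 0, and 261 and 295 at KSR day 4.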
